A study of Mus musculus with 6 samples.

Results

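Pmel, Mlana, Dct, Tyr, Tyrp1, Mitf, Sox10, Slc45a2 and Mc1r are 9 genes of the melanocyte lineage. They were chosen by gene symbol, and all 9 were found among the 32285 genes of the single-cell RNA-Seq tables. Single-cell RNA-Seq had been run on cells pulled out with CD45 beads from B16-F10 tumors, a transplantable mouse melanoma line of C57BL/6 origin. All mice were female C57BL/6 of 6 to 10 weeks and all received αPD-1 (150 μg, 3 times a week from day 7). In 3 samples (αPD-1) the antibody was given with vehicle, and in 3 samples (αPD-1 + corin) it was combined with corin (200 μg daily from day 6), an inhibitor of the CoREST complex. Each arm held 10 mice, but the labels do not tie mice to samples, so p-values measure only the spread between these samples. The model is 1 cell line in 1 strain, and no group without αPD-1 was among the samples used here.

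Melanocytes make melanin in melanosomes. MITF, the transcription factor at the centre of the lineage, acts downstream of SOX10 and switches on many pigment genes by binding a short element in their promoters. Tyrosinase (Tyr), tyrosinase-related protein 1 (Tyrp1) and dopachrome tautomerase (Dct) carry out melanin synthesis, PMEL forms the fibrils of the melanosome, MLANA is a melanosomal protein, SLC45A2 is a melanosomal transporter and MC1R is the receptor for α-MSH. Several of these proteins are melanoma antigens for T cells. MITF is also made outside the pigment lineage, including in macrophages and osteoclasts.

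In GRCm39 coordinates the genes lie on 8 chromosomes. Those of melanin synthesis are Tyrp1 (chr4:80752360-80769956, plus strand), Tyr (chr7:87073979-87142720, minus strand) and Dct (chr14:118250202-118289656, minus strand). The melanosomal genes are Pmel (chr10:128540064-128556107, plus strand), Mlana (chr19:29674900-29686034, plus strand) and Slc45a2 (chr15:11000803-11029319, plus strand). The receptor gene Mc1r lies at chr8:124133846-124137483 on the plus strand, and the transcription factor genes are Mitf (chr6:97783950-97998323, plus strand) and Sox10 (chr15:79039108-79049469, minus strand). Each is annotated as protein coding. Their genomic lengths range from 3.64 kb (Mc1r) to 214 kb (Mitf).

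Promoter sequence from RefSeq (GRCm38.p6) was at hand for 5 of the 9 genes, in 7 windows. They are shown because the element TCATGTG, the M-box bound by MITF, is the sequence feature that several members share. It was searched on both strands in the 250 bases before each start and is in capitals below, also where it lies on the other strand as CACATGA. It was present in the windows of Tyrp1, Tyr, Mc1r and Dct, and in 3.25% of all 32851 promoter windows of the same length. The 3 Mitf windows did not hold these letters, and Pmel, Mlana, Sox10 and Slc45a2 had no window. The match is a description of the letters only.
Tyrp1 (chr4:80833963-80834212, plus strand): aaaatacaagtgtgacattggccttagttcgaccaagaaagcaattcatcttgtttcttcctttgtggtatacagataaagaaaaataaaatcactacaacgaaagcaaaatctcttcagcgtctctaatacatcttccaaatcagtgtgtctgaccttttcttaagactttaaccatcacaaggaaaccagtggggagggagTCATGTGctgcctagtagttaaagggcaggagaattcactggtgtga
Tyr (chr7:87493513-87493762, minus strand): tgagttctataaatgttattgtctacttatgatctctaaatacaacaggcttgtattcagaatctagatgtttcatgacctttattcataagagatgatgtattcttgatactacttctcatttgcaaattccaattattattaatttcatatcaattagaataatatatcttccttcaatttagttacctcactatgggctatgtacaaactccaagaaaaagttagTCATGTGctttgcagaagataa
Mc1r (chr8:123406832-123407081, plus strand): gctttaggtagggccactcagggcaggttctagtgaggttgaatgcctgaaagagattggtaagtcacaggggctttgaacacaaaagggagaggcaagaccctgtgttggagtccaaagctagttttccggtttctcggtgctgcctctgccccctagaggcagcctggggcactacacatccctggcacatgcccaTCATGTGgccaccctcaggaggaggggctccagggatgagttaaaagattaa
Dct (chr14:118052247-118052496, minus strand): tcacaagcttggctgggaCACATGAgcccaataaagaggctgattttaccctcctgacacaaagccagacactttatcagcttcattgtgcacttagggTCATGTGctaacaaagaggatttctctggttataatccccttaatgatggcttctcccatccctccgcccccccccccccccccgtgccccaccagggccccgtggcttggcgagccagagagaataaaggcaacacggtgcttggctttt
Each sequence is written 5′ to 3′ along its gene's strand and ends at the base before the start. The element began 47 bases before the start of Tyrp1, 22 before that of Tyr, 52 before that of Mc1r and 151 before that of Dct. Dct held another copy on the other strand, 232 bases before its start.

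The 6 samples held 52899 barcodes and 416282296 UMIs, 52281422 to 84276739 a sample. Of these barcodes, 38294 had at least 600 genes and at most 10% mitochondrial UMIs. There were 299 barcode sequences that occurred in 2 samples and 0 in more. UMIs of the 9 genes made up 0.597% to 0.886% of all UMIs of a sample. Melanoma cells were taken as barcodes with at least 10 UMIs of Pmel, Mlana, Dct and Tyrp1 together and no UMI of Ptprc, the gene of CD45, so the presence of these 4 genes and the lack of Ptprc follow from the rule. This gave 7000 melanoma cells, in which 89.6% to 93.8% of the UMIs of the 9 genes were found. Most of the cells lay far from the limit, as 79.9% had 100 or more UMIs of the 4 genes, while 77 cells had 10 or 11 and 91 barcodes without Ptprc just missed it with 8 or 9. A further 847 barcodes reached 10 UMIs but had Ptprc, and were left out. In all, 77.5% of the melanoma cells had more than 4000 genes, the upper limit of the study.

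Although the cells had been selected for CD45, melanoma cells made up 12.4%, 9.10% and 18.6% of the kept barcodes with αPD-1 alone. With αPD-1 + corin they made up 19.2%, 22.7% and 24.1%. The groups did not overlap. The means were 13.4% ± 4.80 and 22.02% ± 2.52 (SD, n = 3 each), and the two-sided exact permutation p was 0.1, the smallest that 3 samples against 3 can give. The difference fell from 8.66 to 2.20 percentage points (exact permutation p = 0.6) when cells of at least 20000 UMIs were counted, and to 4.77 (exact permutation p = 0.3) among all deposited barcodes. Within the study's limit of 4000 genes the means were 2.07% ± 0.667 and 7.52% ± 0.851 and the groups did not overlap (exact permutation p = 0.1). With cells chosen on 8 pigment genes outside the 9, the difference was 8.16 percentage points and the groups overlapped (exact permutation p = 0.2). Melanoma cells also differed in depth, with medians of 35908, 48518 and 35178 UMIs under αPD-1 and of 18483, 33193 and 26381 UMIs under αPD-1 + corin. What the bead selection contributed to the share was not tested.

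No change of the 9 genes with corin was detectable in melanoma cells. By edgeR's quasi-likelihood test on the UMIs summed per sample, 0 of the 9 were called at an adjusted p under 0.05. The background was equally empty, with 0% of the 14699 genes tested called (2074 at an unadjusted p under 0.05). DESeq2 called 322 genes and 0 of the 9. The fold changes of the 9 genes ran from -0.16 to 0.17 on the log2 scale, and their 95% confidence intervals together spanned 0.754-fold to 1.27-fold. Levels below are UMIs scaled to the total of the class (counts per 1000000 UMIs, CPM). As the assay counts 1 end of each molecule, these were compared between genes without scaling by gene length.

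**Figure D1:**
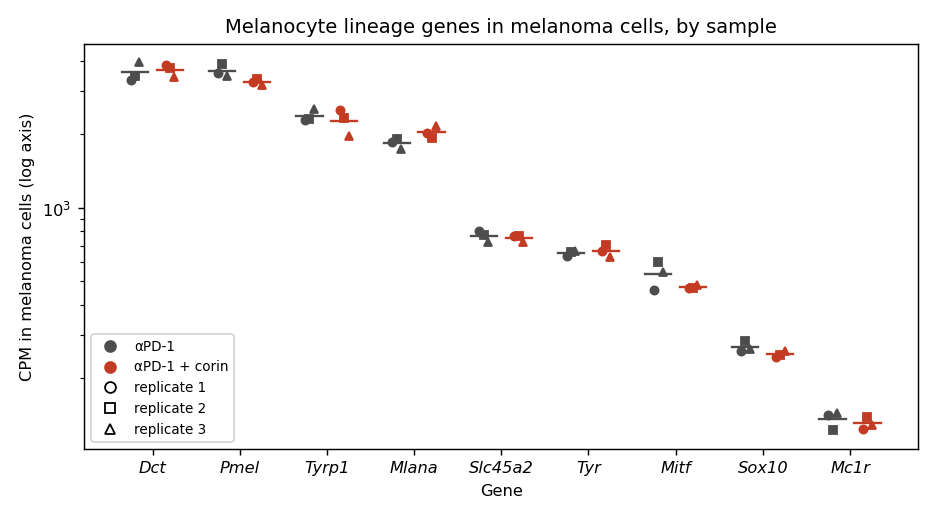
CPM in melanoma cells (log axis) for each gene and sample, with αPD-1 in grey and αPD-1 + corin in red, symbols for replicates and a bar for the mean. Dct and Pmel sit highest and Mc1r lowest.

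Among the genes of melanin synthesis, Dct was at 3348, 3485 and 3947 CPM under αPD-1 and 3851, 3751 and 3444 CPM under αPD-1 + corin. The groups overlapped, and the log2 fold change was 0.05 ± 0.08 (SE; edgeR adjusted p = 0.83). Tyrp1 stood at 2287, 2312 and 2553 CPM against 2515, 2334 and 1963 CPM, with a log2 fold change of -0.06 ± 0.09 (edgeR adjusted p = 0.82). The lowest of these values was that of αPD-1 + corin replicate 3. Tyr, the enzyme of the first step, was several times lower than both at 632, 661 and 664 CPM against 663, 707 and 628 CPM, with a log2 fold change of 0.04 ± 0.06 (edgeR adjusted p = 0.79).

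Pmel and Mlana had log2 fold changes of opposite sign, and neither was called. Pmel was at 3583, 3872 and 3487 CPM under αPD-1 and 3289, 3389 and 3199 CPM under αPD-1 + corin. The log2 fold change was -0.13 ± 0.06 (SE) and missed the threshold (edgeR adjusted p = 0.38). Its sign turned within the study's limit of 4000 genes (0.079) and in the melanoma-like clusters (0.15). Mlana was at 1869, 1915 and 1741 CPM against 2032, 1932 and 2171 CPM. Here the log2 fold change was 0.17 ± 0.07 and also missed the threshold (edgeR adjusted p = 0.37). Slc45a2 was at 801, 773 and 726 CPM against 768, 766 and 725 CPM, with a log2 fold change of -0.01 ± 0.05 (edgeR adjusted p = 0.96).

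Of the regulators, Mitf was at 460, 599 and 546 CPM under αPD-1 and 467, 470 and 481 CPM under αPD-1 + corin. The αPD-1 + corin samples lay within a narrow range that αPD-1 replicate 1 fell just below, and the log2 fold change was -0.16 ± 0.10 (edgeR adjusted p = 0.53). Sox10, the factor upstream of Mitf, was at 259, 284 and 263 CPM against 244, 248 and 259 CPM (log2 fold change -0.08 ± 0.07, edgeR adjusted p = 0.64). Mc1r was the lowest of the 9 genes at 141, 122 and 145 CPM against 123, 139 and 129 CPM (log2 fold change -0.04 ± 0.08, edgeR adjusted p = 0.85).

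**Figure D2:**
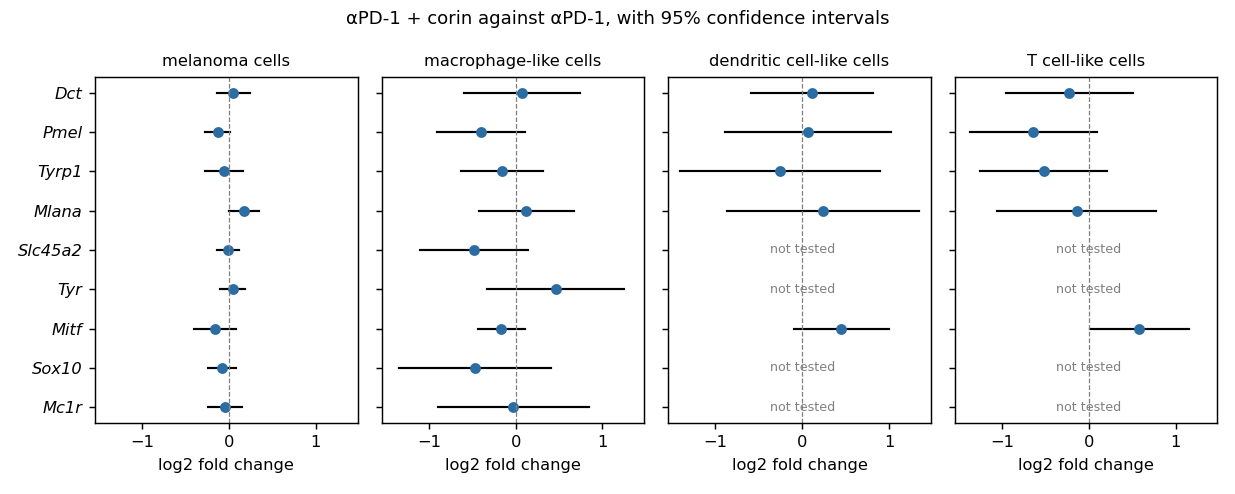
log2 fold change of αPD-1 + corin against αPD-1 for each gene in 4 classes of cells, with points for the estimate and lines for the 95% confidence interval from edgeR. The intervals are narrow in melanoma cells, within -0.41 and 0.34, and wide in the immune classes, and 4 genes had too few UMIs for a test in dendritic cell-like and T cell-like cells.

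The choice of cells did not bring a member past the threshold. When cells were instead chosen on 8 pigment genes outside the 9, 6822 cells were found, of which 6679 were among the 7000, and 0 of the 9 genes were called. The members' median log2 fold change was -0.04, and that of all genes tested was 0.00. A list of 37 other pigment genes had 35 that could be tested, with a median of -0.03 and 0 called. A list of 20 genes linked to dedifferentiated melanoma had 17 that could be tested, with a median of 0.10 and 0 called. Both lists were drawn up with earlier results of these data known. The sum of 7 fibroblast markers in the melanoma cells was 4.22 to 167 CPM in the αPD-1 samples and 75.7 to 1372 CPM in the αPD-1 + corin samples. Its part in the second list was not tested. The 12 monocyte and macrophage markers summed to 812 to 914 CPM and 814 to 1029 CPM.

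Most melanoma cells held UMIs of all 9 genes. The median cell had UMIs of 9 of the 9 in each sample. Every one was seen in 81.9% to 83.5% of cells in the αPD-1 samples and 64.6% to 74.4% in the αPD-1 + corin samples, whose cells were shallower. After thinning to 1000 UMIs, which left out cells with fewer, the median cell had 5 of the 9 in each of the 6 samples. Dct was then seen in 92.9% to 95.3% and 92.0% to 95.5% of cells, and Mc1r in 8.27% to 15.9% and 10.7% to 11.7%.

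Barcodes within the study's limit of 4000 genes gave 3 melanoma-like clusters with 1884 cells, of which 1433 were melanoma cells by the rule above. The 9 genes and other pigment genes had been left out of the variable genes. However, all of the 9 except Mc1r were the markers that named these clusters, so high levels of some of them follow from the name. The members stood in very different proportions in the 3 clusters, which is given as a description with no test. Cluster 15 (858 cells) had Dct at 3810, Pmel at 2779, Mlana at 1736 and Tyr at 669 CPM, pooled over samples. Cluster 17 (774 cells) had Mlana at 2032, Pmel at 1693 and Tyr at 190 CPM. The order of Mlana and Pmel was not the same in every sample of cluster 17, with Pmel at 1909 and Mlana at 1864 CPM in αPD-1 replicate 1. Cluster 24 (252 cells) was led by Chsy3, Ankfn1 and Prkg1, and had Tyr at 1831 and Mitf at 880 CPM but Pmel at 521 and Mlana at 216 CPM.

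The order in cluster 24 was seen in every sample. Tyr was at 1610 to 2445 CPM in it and Mlana at 70.6 to 317 CPM, so that the ranges did not overlap, and in cluster 17 Tyr was at 158 to 248 CPM and Mlana at 1650 to 3566 CPM. The non-coding RNA Malat1, which stays in the nucleus, was at 30851 CPM in cluster 24, 4082 CPM in cluster 15 and 689 CPM in cluster 17, and the median mitochondrial share was 4.54%, 3.06% and 1.02%. The median cell had 4274, 8392 and 2493 UMIs. The genes higher in cluster 24 than in clusters 15 and 17, Tyr (68.7 kb) and Mitf (214 kb), are the 2 longest of the 9. Mlana (11.1 kb) and Pmel (16.0 kb) are among the shorter ones. The highest of the 9 in cluster 24 was Dct (39.5 kb) at 2340 CPM, and Tyrp1 (17.6 kb) was at 884 CPM. Both were below their values in clusters 15 and 17. The parts of gene length and nuclear RNA in this pattern were not tested.

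**Figure D3:**
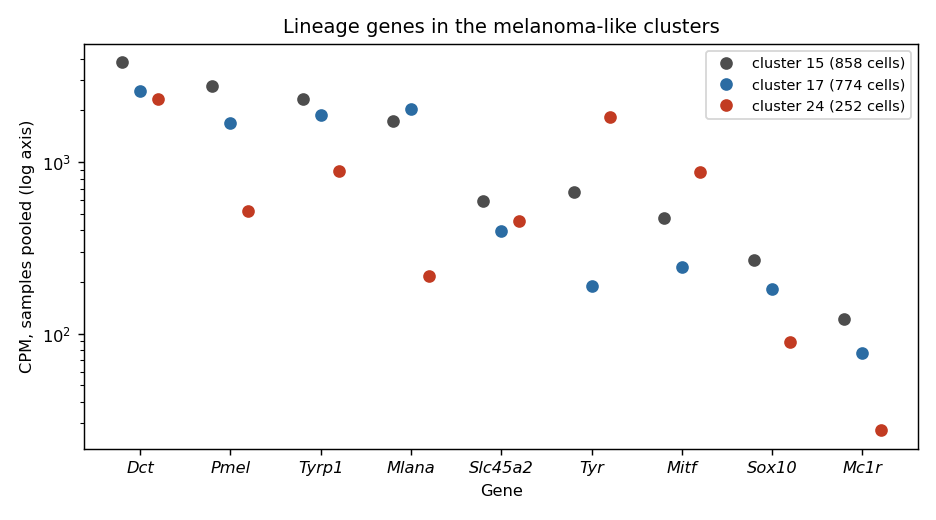
Pooled CPM (log axis) of the 9 genes in the 3 melanoma-like clusters, one point per cluster. In cluster 24 Tyr and Mitf lie above their values in clusters 15 and 17, Slc45a2 lies between them, and Pmel, Mlana, Dct, Tyrp1, Sox10 and Mc1r lie below them.

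The same genes were then read in immune cells, named from their markers. There were 10627 macrophage-like cells (clusters led by genes such as C1qa, Arg1, Chil3 and Lyve1), 1857 dendritic cell-like cells and 2966 T cell-like cells. Pmel, Mlana, Dct and Tyrp1, which these cells are not known to make, were found at low levels in each class. Their sum in macrophage-like cells was 69.1, 71.9 and 93.9 CPM under αPD-1 and 50.4, 60.5 and 93.7 CPM under αPD-1 + corin. This was 0.431% to 0.87% of the level in the melanoma cells of the same sample. In dendritic cell-like cells the sum was 30.0, 52.5 and 69.6 CPM against 28.8, 59.7 and 60.7 CPM. In T cell-like cells it was 46.9, 57.9 and 96.2 CPM against 6.60, 42.02 and 54.4 CPM. The value of 6.60 rests on 2 UMIs in 79 cells, fewer than the 3 counts taken as the floor (9.91 CPM in this sample).

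Replicate 3 of αPD-1 had the highest sum in all 3 classes, and replicate 1 of each group was the lowest of its group in each. B cell-like cells held 82.3, 94.6 and 117 CPM in the αPD-1 samples, above the macrophage-like cells of the same sample in 3 of 3. As UMIs per cell the order was reversed, at 0.182, 0.222 and 0.255 in B cell-like and 0.293, 0.387 and 0.370 in macrophage-like cells. NK-like cells held 54.1, 72.3 and 92.4 CPM under αPD-1 and 45.8, 63.2 and 140.2 CPM under αPD-1 + corin (0.0797 to 0.301 UMIs per cell). In CPM they lay above the macrophage-like cells of the same sample in some samples and below them in others. Uptake by cells and free RNA in the droplets cannot be told apart in these tables. The share of cells with a UMI was taken as well. After thinning to 1000 UMIs, 4.44% to 11.6% of macrophage-like cells and 1.28% to 12.9% of T cell-like cells had a UMI of the 4 genes, against 13.0% to 28.8% and 2.53% to 23.9% without thinning (median depth 3154 to 4732 and 1963 to 5694 UMIs).

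Macrophage-like cells were compared with the T cell-like cells of the same sample. The ratio of the summed levels was 1.47, 1.24 and 0.976 under αPD-1 and 7.63, 1.44 and 1.72 under αPD-1 + corin, above 1 in 5 of 6. Its mean was 0.85 ± 1.06 on the log2 scale (SD, n = 6; two-sided exact sign-flip permutation p = 0.063), and the ratio of 7.63 has the 2 UMIs in its denominator. Without that sample the mean was 0.43 (exact permutation p = 0.125). As UMIs per cell the mean was 0.95 (exact permutation p = 0.031), where the depth of the cells enters. Of the single genes, Mlana and Mitf were at higher values in macrophage-like cells in 6 of 6 samples, at an exact permutation p of 0.031 for each gene, the least that 6 samples allow, and 0.0938 after adjustment over the 9 genes. For Mlana 1 of the 6 T cell-like values was 0 UMIs (αPD-1 + corin replicate 1), so its ratio there rests on the pseudocount. Mc1r had 0 to 7 UMIs in T cell-like cells, and no order was read from it.

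**Figure D4:**
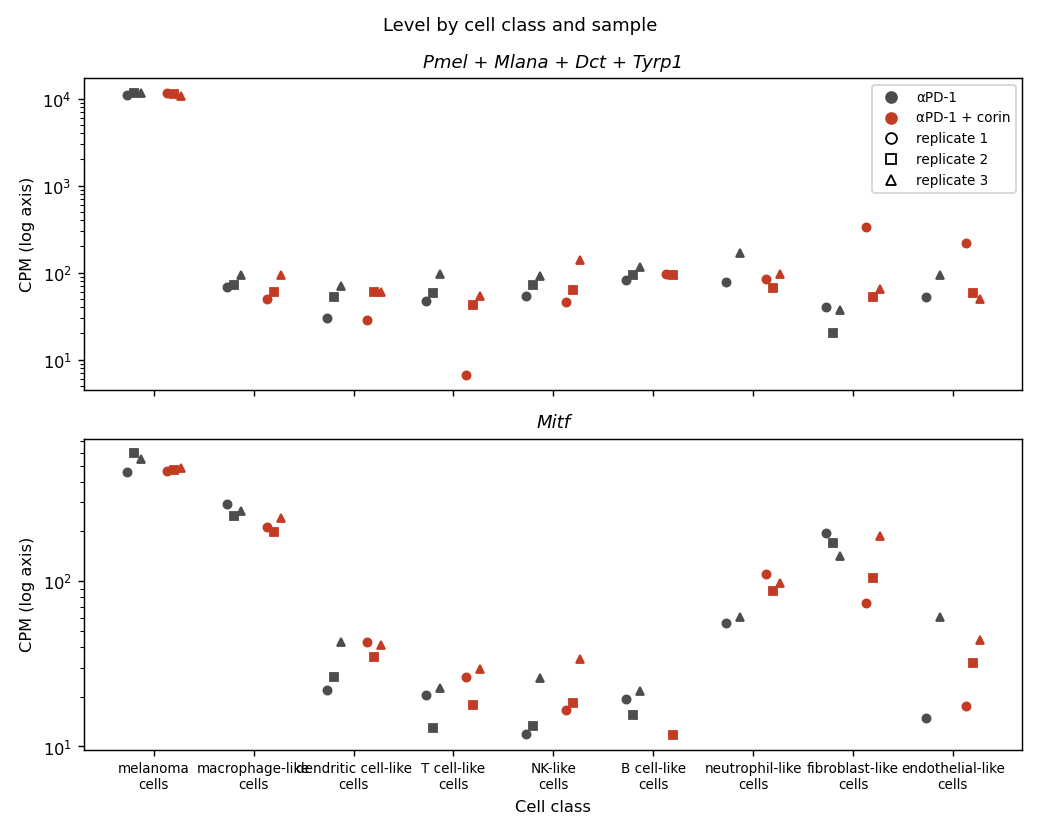
CPM (log axis) by class and sample for the sum of Pmel, Mlana, Dct and Tyrp1 (upper panel) and for Mitf (lower panel), in samples with at least 20 cells of the class; 1 B cell-like sample with no Mitf UMI is not drawn. The sum is 10777 or more in every melanoma sample and at most 334 elsewhere. Mitf in macrophage-like cells is at 41.6% to 63.6% of its CPM in the melanoma cells of the same sample.

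Mitf, the regulator, had another pattern over the classes. In macrophage-like cells it was at 292.6, 248.9 and 267.6 CPM under αPD-1 and 214, 199.6 and 240 CPM under αPD-1 + corin. This was 41.6% to 63.6% of its CPM in the melanoma cells of the same sample. As UMIs per cell Mitf was far lower, at 0.807 to 1.34 in macrophage-like cells and 8.89 to 28.4 in the deeper melanoma cells. Fibroblast-like cells were at 73.8 to 196 CPM and neutrophil-like cells, in the αPD-1 + corin samples, at 87.2 to 110 CPM, and these ranges overlapped. Dendritic cell-like cells were at 21.9 to 42.7 CPM and T cell-like cells at 12.9 to 29.6 CPM, and these last ranges overlapped. Macrophage-like cells exceeded T cell-like cells by 3.50 ± 0.50 on the log2 scale (SD, n = 6; exact permutation p = 0.031, 0.0938 after adjustment). After thinning, 17.2% to 21.8% of macrophage-like cells had a Mitf UMI, against 0.644% to 3.85% of T cell-like cells.

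Within the macrophage-like cells Mitf varied by cluster. It was lowest in cluster 7, led by Chil3 and Vcan, at 51.9 to 113 CPM over the 6 samples. In cluster 0, led by Ms4a7 and C1qc, it was at 177 to 306 CPM, and in cluster 8, led by Lyve1 and Fcna, at 248 to 490 CPM. It was highest in cluster 22, led by Slc8a1 and Frmd4b, at 836 to 1532 CPM, above the CPM of the melanoma cells of every sample. The median cell of cluster 22 had 2445 UMIs, against 27546 for melanoma cells, so this order holds for CPM only. In that cluster Malat1 was at 32687 to 69459 CPM, against 6549 to 9203 CPM in cluster 0. No test was run between clusters.

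The make-up of the lineage UMIs showed the same contrast. Mitf made up 3.68% ± 0.354 of the UMIs of the 9 genes in melanoma cells and 74.6% ± 3.68 in macrophage-like cells (mean ± SD, n = 6). It was 38.8% ± 9.08 in dendritic cell-like and 32.2% ± 20.7 in T cell-like cells. As 4 of the 9 genes had chosen these melanoma cells, the shares were tested against the melanoma cells chosen on 8 other pigment genes, a setting added after the data were seen. Of those 6822 cells, 6679 were also among the 7000, and they too were chosen for pigment genes. The test is therefore not independent of the choice of cells. Mitf then made up 3.68% ± 0.350 in melanoma cells. Against them the share of Mitf was higher and those of the other 8 lower in macrophage-like cells in 6 of 6 samples (exact permutation p = 0.031 each, 0.031 after adjustment). Shares of 1 total are tied together, so a higher share of Mitf lowers the others, and the p-values of the 9 genes are not separate results.

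**Figure D5:**
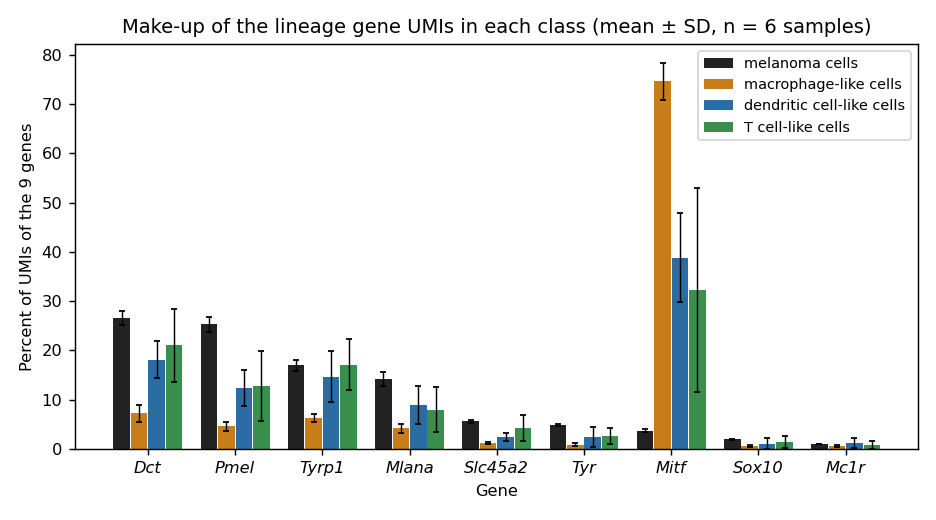
Percent of the UMIs of the 9 genes that each gene takes in 4 classes of cells; bars are the mean and error bars the SD over 6 samples. Mitf takes 74.6% in macrophage-like cells and 3.68% in melanoma cells, while Dct and Pmel lead in melanoma cells.

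The other 8 genes alone were compared as well, after the data were seen and against the same melanoma cells chosen on other pigment genes. Leaving out Mitf, at 74.6% in macrophage-like cells, by itself raises the other shares there, and closeness to melanoma cells was not tested. In macrophage-like cells Dct took 28.2% ± 3.45 of the UMIs of the 8 genes against 27.5% ± 1.37 in melanoma cells, and Mlana 16.2% ± 1.82 against 14.8% ± 1.46. Pmel took 18.1% ± 2.62 against 26.3% ± 1.64, and was lower in 6 of 6 samples. Tyrp1 took 25.0% ± 1.89 against 17.6% ± 1.14, and was higher in 6 of 6 samples. Tyr took 3.16% ± 0.967 against 5.01% ± 0.164 and Slc45a2 4.64% ± 0.686 against 5.77% ± 0.264, both lower in 6 of 6. Mc1r took 2.16% ± 0.766 against 1.01% ± 0.0775 and was higher in 6 of 6, from 6 to 33 UMIs a sample in macrophage-like cells. Pmel, Tyr, Tyrp1, Slc45a2 and Mc1r each reached the smallest exact permutation p of 0.031, and 0.05 after adjustment over the 8 genes, which is not under the threshold of 0.05.

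Neither did corin bring a member past the threshold in the immune classes. In macrophage-like cells 0 of 9 genes were called, where 0.461% of the 11714 genes tested were. Mitf, with its values given above, had a log2 fold change of -0.17 ± 0.12 (edgeR adjusted p = 0.45). The class was made of different clusters in the groups. Cluster 22, where Mitf was highest, was 4.86% to 8.55% of it under αPD-1 and 0.908% to 3.56% under αPD-1 + corin, and cluster 6 was 0.464% to 1.56% against 26.4%, 23.3% and 0.612%. Without cluster 22, left out after the data were seen, Mitf was at 235, 203 and 219 CPM under αPD-1 and 209, 190 and 228 CPM under αPD-1 + corin. The log2 fold change was then 0.05 ± 0.12 (edgeR adjusted p = 0.85). Leaving out a cluster that was picked for its high Mitf, and was larger under αPD-1, had to lower the αPD-1 values more. The part of the clusters in the difference was not tested. In dendritic cell-like cells 0 of the 5 genes with enough UMIs were called, where 0.351% of the 9413 genes tested were. In T cell-like cells 0 of 5 were called, where 21.3% of the 9678 genes tested were. At an unadjusted p under 0.05 there were 0, 0 and 1 of the members, and DESeq2 called 0 in each class.

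The member with the unadjusted p was Mitf in T cell-like cells, at 20.4, 12.9 and 22.6 CPM under αPD-1 and 26.4, 17.8 and 29.6 CPM under αPD-1 + corin. The groups overlapped, and the log2 fold change was 0.58 ± 0.27 (edgeR adjusted p = 0.14). Without αPD-1 + corin replicate 2 it was 0.81 (edgeR adjusted p = 0.0487), and with other clusters from log-normalized counts -0.16. T cell-like cells came from different clusters in the groups, mostly cluster 4, led by Gzmb and Prf1, in αPD-1 + corin, and mostly clusters 14 and 20, led by Dapl1 and Hs6st3, in αPD-1. The monocyte and macrophage markers in the T cell-like cells summed to 721, 619 and 677 CPM under αPD-1. Under αPD-1 + corin they summed to 1149, 869 and 1216 CPM, and their part in the Mitf values was not tested. The confidence intervals of the members reached 0.388-fold and 2.22-fold in T cell-like cells, and 0.395-fold and 2.38-fold in macrophage-like cells.

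The genes whose pattern over the classes was most like the sum of Pmel, Mlana, Dct and Tyrp1 were sought over 54 profiles, each 1 class in 1 sample. The 5 outside the 9 with the highest Pearson r of log2(CPM + 1) were Nlgn1, Rab17, Gsdmc, C1ql3 and Cort, with r from 0.939 to 0.948. They were at 23.04 to 46.4 CPM in melanoma cells. Profiles of 1 sample share a library, and no test was made. Of the members outside the sum, Slc45a2 (0.927), Tyr (0.922), Sox10 (0.896) and Mc1r (0.861) followed it, and Mitf ranked 868 with an r of 0.576.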

How the data were processed

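Single-cell 5′ RNA-Seq of CD45+ cells was given as 6 tables of UMI counts, deposited by the authors after Cell Ranger 8.0 on GRCm39, with Seurat 5.0.11 named in the submitters' processing notes. Values were raw counts per gene and barcode. Barcodes had to hold 600 or more genes, with mitochondrial UMIs no more than 10%. For clusters, barcodes of at most 4000 genes were normalized with SCTransform (Seurat 5.3.0, sctransform 0.4.2; 20 principal components, resolution 0.8). Scrublet (scanpy 1.11.5) marked 0 doublets with its own threshold, so the highest scores were removed at 0.4% per 1000 barcodes, 2002 in all. Melanoma cells were taken before the limit on genes and before this removal. Clusters were named when at least 3 markers were present in 10% of cells at 1.5 times the mean of the other clusters, and 2 mixed and 2 unnamed clusters were left out.

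For each sample, the counts of a class were added up and compared by edgeR 4.0.16 (TMM, filterByExpr, quasi-likelihood, Benjamini-Hochberg over all genes). The fits were tested on simulated data. Shares and ratios were compared by exact permutation (pseudocount 0.5 UMI for single genes). The 9 genes were named in every class, list genes only if called, and the 5 most similar genes by correlation. Replicate numbers were checked for pairing: same-numbered samples did not all correlate above 0.1 in any class. Members, lists and rules were chosen with earlier results of these data known. Intervals cover counting error or sample spread only. Gene positions are from GENCODE vM39. DESeq2 1.42.0, other size factors, filters, cell definitions and left-out replicates were alternatives.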

Additional observations from a re-analysis of the deposited data

Results flagged for a closer look

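One value outside the comparisons was more than 2 times the highest αPD-1 sample, in a class with at least 20 cells in each sample compared. In fibroblast-like cells of αPD-1 + corin replicate 1 the sum of Pmel, Mlana, Dct and Tyrp1 was 334.2 CPM, against 20.2 to 40.3 CPM in the 3 αPD-1 samples and 53.2 and 65.8 CPM in the other αPD-1 + corin samples. Of its 614 cells, 25 had at least 10 UMIs of the 4 genes, and without them the sum was 40.6 CPM. Smaller rises or fewer cells stood behind other values above the αPD-1 samples. Endothelial cell-like cells of αPD-1 + corin replicate 1 were at 221 CPM (43.8 to 93.5 CPM, with 11 cells in 1 αPD-1 sample). Of these 48 cells, 1 had at least 10 UMIs of the 4 genes, and without it the sum was 18.1 CPM. The value of 93.5 CPM, in αPD-1 replicate 3, also held 1 such cell and was 43.8 CPM without it. In αPD-1 + corin replicate 3, NK-like cells were at 140.2 CPM (54.1 to 92.4 CPM) and 11 B cell-like cells at 157 CPM (82.3 to 117 CPM). Groups of 3 samples were too small for a search for outlying samples.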

How the results depend on the processing

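In melanoma and macrophage-like cells 0 of the genes were called in edgeR or DESeq2 under every alternative run, and in dendritic cell-like cells 0 of the 5 tested (9 without a filter). In T cell-like cells 1 was called without αPD-1 + corin replicate 2 (Mitf, higher) and 1 in the fit with the replicate block (Tyrp1, lower by 0.91 on the log2 scale, edgeR adjusted p = 0.0469), with 0 to 1 over the left-out replicates. Same-numbered samples shared only a number, and the block moved the genes called from 0 to 35 in melanoma cells and from 54 to 27 in macrophage-like cells. The genes called in melanoma cells were 0 to 116 over the left-out replicates, 116 without αPD-1 + corin replicate 3, 322 by DESeq2, 9 without a filter and 1 within 4000 genes. In macrophage-like cells they were 1 to 2307 over the left-out replicates, 386 by DESeq2, 1048 without a filter and 7 with log-normalized clusters. In dendritic cell-like cells they were 9 to 189, 75 by DESeq2, 463 without a filter and 52 with log-normalized clusters, and in T cell-like cells 978 to 2013, and 1228 by DESeq2.

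The macrophage over T cell mean was 0.53 with log-normalized clusters, 0.75 without doublet removal and 0.95 as UMIs per cell (exact permutation p = 0.031 each), 0.76 without cells of 10 or more UMIs, 0.43 as the share of thinned cells, and 0.43 to 1.02 without 1 sample. The number of shares that differed from melanoma cells was 9 with melanoma cells chosen on other pigment genes, 0 among the 8 genes other than Mitf with either choice of melanoma cells, and 0 to 0 without 1 sample, where 5 samples cannot go below an exact permutation p of 0.063. The 9 shares are tied together and are not separate results. The melanoma share difference stayed positive, 6.53 to 11.3 percentage points without 1 sample.

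Folds that were not called changed sign in some settings, and the cause was not tested. In melanoma cells within 4000 genes Pmel was 0.079, Tyr -0.32 and Tyrp1 0.052. In the melanoma-like clusters Pmel was 0.15, Tyr -0.27, Tyrp1 0.17 and Sox10 0.015. Slc45a2 was 0.017 in cells of 20000 UMIs or more and 0.032 in cells chosen on 20 UMIs of other pigment genes. With log-normalized clusters Mc1r was 0.054 in macrophage-like, Pmel -0.22 in dendritic cell-like, and Dct 0.12 and Mitf -0.16 in T cell-like cells. Without cluster 22 Mitf was 0.050 in macrophage-like cells. Without doublet removal Mc1r was 0.19 in macrophage-like, Pmel -0.094 in dendritic cell-like and Mlana 0.27 in T cell-like cells. Without 1 sample, in melanoma cells Dct ranged from -0.012 to 0.13, Tyrp1 from -0.13 to 0.020, Slc45a2 from -0.040 to 0.0098 and Mc1r from -0.11 to 0.010. In macrophage-like cells Mlana ranged from -0.13 to 0.31, Dct from -0.29 to 0.31, Tyrp1 from -0.43 to 0.0090 and Mc1r from -0.23 to 0.22. In dendritic cell-like cells Pmel ranged from -0.36 to 0.45, Mlana from -0.35 to 0.56, Dct from -0.15 to 0.42 and Tyrp1 from -0.88 to 0.18. In T cell-like cells Mlana ranged from -1.17 to 0.073 and Dct from -0.51 to 0.16.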
